A study of Mus musculus with 20 samples.

Results

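The nuclear genes of oxidative phosphorylation were examined for open chromatin at their ends. They were chosen by symbol alone among the protein-coding genes of the RefSeq GRCm38.p6 table on chromosomes 1 to 19 and X. A gene was taken when its symbol began with Ndufa, Ndufb, Ndufc, Ndufs, Ndufv, Uqcr, Cox4i, Cox5, Cox6, Cox7, Cox8 or Atp5, or was Sdha, Sdhb, Sdhc, Sdhd or Cyc1. This gave 97 of 21627 genes. By name, 41 encode subunits of complex I or close relatives of them, 8 are Ndufaf assembly factors of complex I, 4 belong to complex II, 9 to complex III, 18 to complex IV and 17 to complex V, the ATP synthase.

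Oxidative phosphorylation is carried out in the inner mitochondrial membrane. Complexes I and II pass electrons to ubiquinone, complex III passes them on to cytochrome c, complex IV reduces oxygen, and complex V makes ATP from the proton gradient that complexes I, III and IV build. Most subunits are encoded in the nucleus, and their promoters are known for binding sites of NRF1, the ETS factor GABP, YY1 and the oestrogen-related receptors. Several complex IV subunits exist as a widespread and a tissue-restricted isoform, and COX6A2, COX7A1 and COX8B are the forms of heart and skeletal muscle in the mouse.

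ATAC-seq, which marks open DNA by transposase insertion, was applied to C2C12, a mouse myoblast line that can form myotubes. Wild-type (WT) cells and 2 Setd2 knockout lines (KO_1 and KO_2, here line 1 and line 2) were each taken at D0, then with control medium (CTL) or methionine restriction (MR) at D1 and again at D5. Setd2 encodes the main enzyme that places H3K36me3. Each of the 10 groups held 2 libraries, 2 WT replicates or 1 library from each KO line, so KO spread is spread between lines that recur in every condition. The labels do not say whether the WT replicates came from separate cultures, nor how the lines were made, and p-values measure only the spread between these libraries.

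A gene was called in a library when a deposited peak lay within 1 kb of either gene end. Peak lists held 20847 to 69881 peaks in 18 libraries. The D5 libraries of KO line 1 held 644 (CTL) and 1881 (MR) peaks, stand apart, and were left out of all tests, so each KO D5 group is 1 library of line 2. The other library that stands apart is KO D0 line 1, in which 186 genes were called that were called in no other of the 18, against 1 to 125 in each of the rest. All 8 markers of other cell types (such as Alb, Cd3e and Krt5) were uncalled in all 18 libraries. Of 8 muscle markers, 3 (Des, Chrna1 and Cdh15) were called in all 18. Myod1 was called in 17, Mymk in 14, Acta1 in 9, Myog in 8 and Ckm in 5. Myog and Ckm were called only in WT libraries of D1 and D5, and Acta1 in those and 1 KO D1 CTL library. A peak was called at Setd2 in 18 of 18 libraries, which does not check the knockout, since open chromatin at a gene end says nothing of a deletion in the gene.

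Promoter sequences are given for 6 genes named in the results below, from RefSeq (GRCm38.p6, 250 bases before to 50 after the start, gene strand). They pair 2 muscle isoforms, Cox8b (chr7:140900397-140900696, minus strand) and Cox7a1 (chr7:30183921-30184220, plus strand), with their widespread counterparts Cox8a (chr19:7217567-7217866, minus strand) and Cox7a2 (chr9:79759804-79760103, minus strand). Uqcr11 (chr10:80406772-80407071, minus strand) carries both an NRF1 and an ETS core, and Atp5g1 (chr11:96075582-96075881, minus strand) was called in no library. Capitals mark CAGCTG, a form of the E-box bound by myogenic factors, the ETS core CCGGAAG or the NRF1 core GCGCANGCG on either strand.
Cox8b: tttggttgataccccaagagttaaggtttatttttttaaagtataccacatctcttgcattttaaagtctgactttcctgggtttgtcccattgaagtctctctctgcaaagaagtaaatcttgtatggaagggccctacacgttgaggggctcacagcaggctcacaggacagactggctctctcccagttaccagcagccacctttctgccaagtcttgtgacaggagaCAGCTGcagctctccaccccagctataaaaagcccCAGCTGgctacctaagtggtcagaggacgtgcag
Cox8a: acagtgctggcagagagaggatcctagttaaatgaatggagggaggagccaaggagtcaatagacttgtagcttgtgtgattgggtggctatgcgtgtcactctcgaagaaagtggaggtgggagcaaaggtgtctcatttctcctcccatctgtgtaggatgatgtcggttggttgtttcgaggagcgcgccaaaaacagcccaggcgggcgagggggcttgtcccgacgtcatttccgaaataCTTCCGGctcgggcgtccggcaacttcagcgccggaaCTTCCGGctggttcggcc
Cox7a1: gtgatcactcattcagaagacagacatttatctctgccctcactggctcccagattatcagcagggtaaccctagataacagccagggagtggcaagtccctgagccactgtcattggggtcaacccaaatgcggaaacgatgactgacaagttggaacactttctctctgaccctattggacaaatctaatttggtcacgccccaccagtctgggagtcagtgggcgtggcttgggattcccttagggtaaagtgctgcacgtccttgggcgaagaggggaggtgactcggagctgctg
Cox7a2: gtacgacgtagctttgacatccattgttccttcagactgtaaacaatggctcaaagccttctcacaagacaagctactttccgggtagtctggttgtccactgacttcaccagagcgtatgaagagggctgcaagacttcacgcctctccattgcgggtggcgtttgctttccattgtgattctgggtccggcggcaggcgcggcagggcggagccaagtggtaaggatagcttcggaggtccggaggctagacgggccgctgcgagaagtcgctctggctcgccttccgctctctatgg
Uqcr11: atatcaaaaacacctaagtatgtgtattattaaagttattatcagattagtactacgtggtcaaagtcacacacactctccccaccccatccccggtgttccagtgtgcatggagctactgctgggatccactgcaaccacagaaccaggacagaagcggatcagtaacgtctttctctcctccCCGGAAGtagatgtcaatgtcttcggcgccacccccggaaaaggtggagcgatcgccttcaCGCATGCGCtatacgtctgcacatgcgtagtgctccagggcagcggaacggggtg
Atp5g1: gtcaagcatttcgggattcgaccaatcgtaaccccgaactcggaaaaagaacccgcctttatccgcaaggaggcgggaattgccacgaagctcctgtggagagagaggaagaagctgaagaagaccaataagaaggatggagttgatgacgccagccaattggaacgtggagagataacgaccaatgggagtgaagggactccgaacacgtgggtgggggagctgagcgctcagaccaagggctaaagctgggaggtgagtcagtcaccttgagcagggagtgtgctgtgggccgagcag
Cox8b has 2 CAGCTG matches, on either side of its start, Cox8a has 2 ETS cores, and no capitals appear in Cox7a1, Cox7a2 and Atp5g1. The CpG observed-to-expected ratio was 0.115 for Cox8b and 0.333 for Cox7a1, against 0.842 for Cox8a and 0.833 for Cox7a2.

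Such RefSeq windows existed for 78 of the 97 genes (83 windows) and for 17273 of all genes (21044 windows). The median CpG observed-to-expected ratio was 0.829 in the members' windows and 0.574 in all windows. The NRF1 core was found in 23 of 83 windows (27.7%) against 8.65% of all windows, the ETS core in 19 (22.9%) against 11.7%, the YY1 core AAGATGGCG in 8 (9.64%) against 1.84%, and the ERR core AAGGTCA in 8 (9.64%) against 4.06%. The wider E-box CANNTG, of which CAGCTG is a case, was found in 58 windows (69.9%) against 69.0%, CAGCTG in 6 (7.23%) against 15.7%, and the MEF2 element in 0 against 2.61%. Among windows of genes called in all 18 libraries the NRF1 core stood in 9 of 38 members' windows (23.7%) and in 13.6% of all, and the YY1 core in 3 (7.89%) and 3.07%. These are matches of letters, counted on both strands, and not measured binding.

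Most of these genes had open chromatin at an end in most libraries. In all 18 usual-depth libraries 40 of 97 were called (41.2%), against 25.7% of all genes. A further 48 were called in 1 to 17 libraries, and 9 in none (9.28%), against 42.2% of all genes in none. The share of members called was 1.55 to 1.74 times the share of all genes over the 18 libraries. Another protein-coding gene had an end within 1 kb of 55 of the 97 members (56.7%), against 25.1% of all genes, so part of these peaks cannot be given to 1 gene.

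At D0 in WT cells, 74.2% and 78.4% of the members were called in replicates 1 and 2, against 45.4% and 48.6% of all genes. At D1 the WT values were 79.4% and 74.2% in CTL (all genes 50.4% and 46.4%) and 84.5% and 81.4% in MR (52.9% and 50.9%). At D5 they were 57.7% and 53.6% in CTL (36.0% and 34.7%) and 73.2% and 75.3% in MR (44.2% and 44.5%). The WT D5 CTL libraries were thus the lowest of the WT libraries for members and for all genes alike, and they also held the fewest peaks, 20847 and 22465.

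In KO line 1 and line 2, 85.6% and 58.8% of the members were called at D0, against 51.9% and 35.3% of all genes. At D1 the values were 82.5% and 74.2% in CTL (all genes 50.7% and 46.7%) and 81.4% and 69.1% in MR (46.7% and 40.6%). At D5 line 2 had 66.0% in CTL (39.1%) and 56.7% in MR (34.3%). The nearly empty D5 lists of line 1 had 3.09% in CTL (1.44%) and 10.3% in MR (4.55%). Line 1 lay above line 2 in every condition with usual depth in both, again for members and all genes alike.

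**Figure D1:**
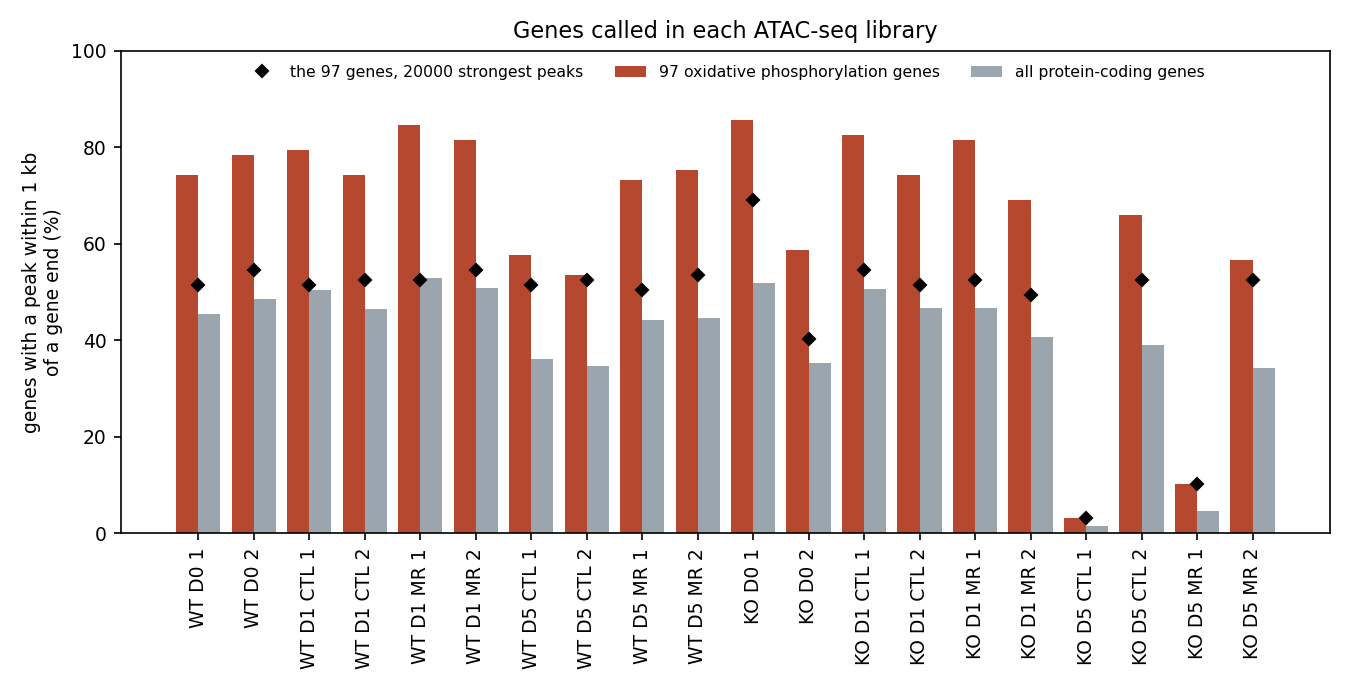
Bars give the percent of genes that had a peak near a gene end (1 kb) in each of 20 libraries, for the 97 members and for all 21627 protein-coding genes, and diamonds give the members' percent when only the 20000 strongest peaks of a list are kept. With 20000 peaks the members lie between 40.2% and 69.1% in the 18 usual-depth libraries, and KO D0 line 1 and line 2 are the ends of that range.

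With lists cut to their 20000 strongest peaks by −log10 q, the members' share was between 49.5% and 54.6% in 16 of the 18 libraries. The exceptions were KO D0 line 1 at 69.1%, against 35.9% of all genes, and KO D0 line 2 at 40.2%, against 26.4% of all genes. The 2 KO lines therefore lay at opposite ends at D0, with both WT D0 libraries (51.5% and 54.6%) between them.

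The strength of a member's best peak was followed as its rank within its own list, in percent, where 100 is the highest −log10 q. The members' median list rank was 70.6 and 75.9 in the WT D0 libraries, 78.2 and 71.5 in WT D1 CTL, 81.6 and 77.5 in WT D1 MR, 59.8 and 56.8 in WT D5 CTL and 72.8 and 75.5 in WT D5 MR. In KO line 1 and line 2 it was 85.9 and 56.6 at D0, 80.4 and 72.9 in D1 CTL and 69.6 and 63.3 in D1 MR, and line 2 had 64.4 in D5 CTL and 56.6 in D5 MR. The median over all called genes ran from 61.2 to 81.6 in the same 18 libraries. Members ranked above that median in each of the WT D0, D1 and D5 MR libraries and below it in both WT D5 CTL libraries (all genes 62.7 and 62.5). In KO they ranked below it in 5 of 8 libraries, line 2 at D0, both lines in D1 MR and line 2 in both D5 media, and above it in the other 3.

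Peaks of members lay close to the start. In the 18 libraries 64.6% to 90.8% of called members with a RefSeq start had their strongest peak over it, against 48.7% to 73.2% of all called genes. The median offset of the peak's midpoint was between −55 and −18.3 bases from the start for members (all genes −44 to −19.5).

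The complexes differed in how many of their genes were called. Complex III was called most evenly, with 7 of its 9 genes called in all 18 libraries, the exceptions being Uqcrb and the core subunit gene Uqcrc1 (15 and 11 libraries). Complex I had 19 of 41 genes called in all 18, its Ndufaf assembly factors 4 of 8, complex V 7 of 17 and complex II 1 of 4. Complex IV had 2 of 18, Cox5b and Cox8a, and 5 of its genes were called in none. Of those 5, Cox5a and Cox7a2 had a peak within 1 kb of their RefSeq promoter start in all 18 libraries, away from the gene ends. The others, Cox4i2, Cox6b2 and Cox8c, are tissue-restricted isoforms. Per library, complex IV genes were called at 16.7% to 50% (median 36.1%) and complex I genes at 61.0% to 92.7% (median 81.7%). No test was made of these differences, which are read beside the 25.7% of all genes called in every library.

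**Figure D2:**
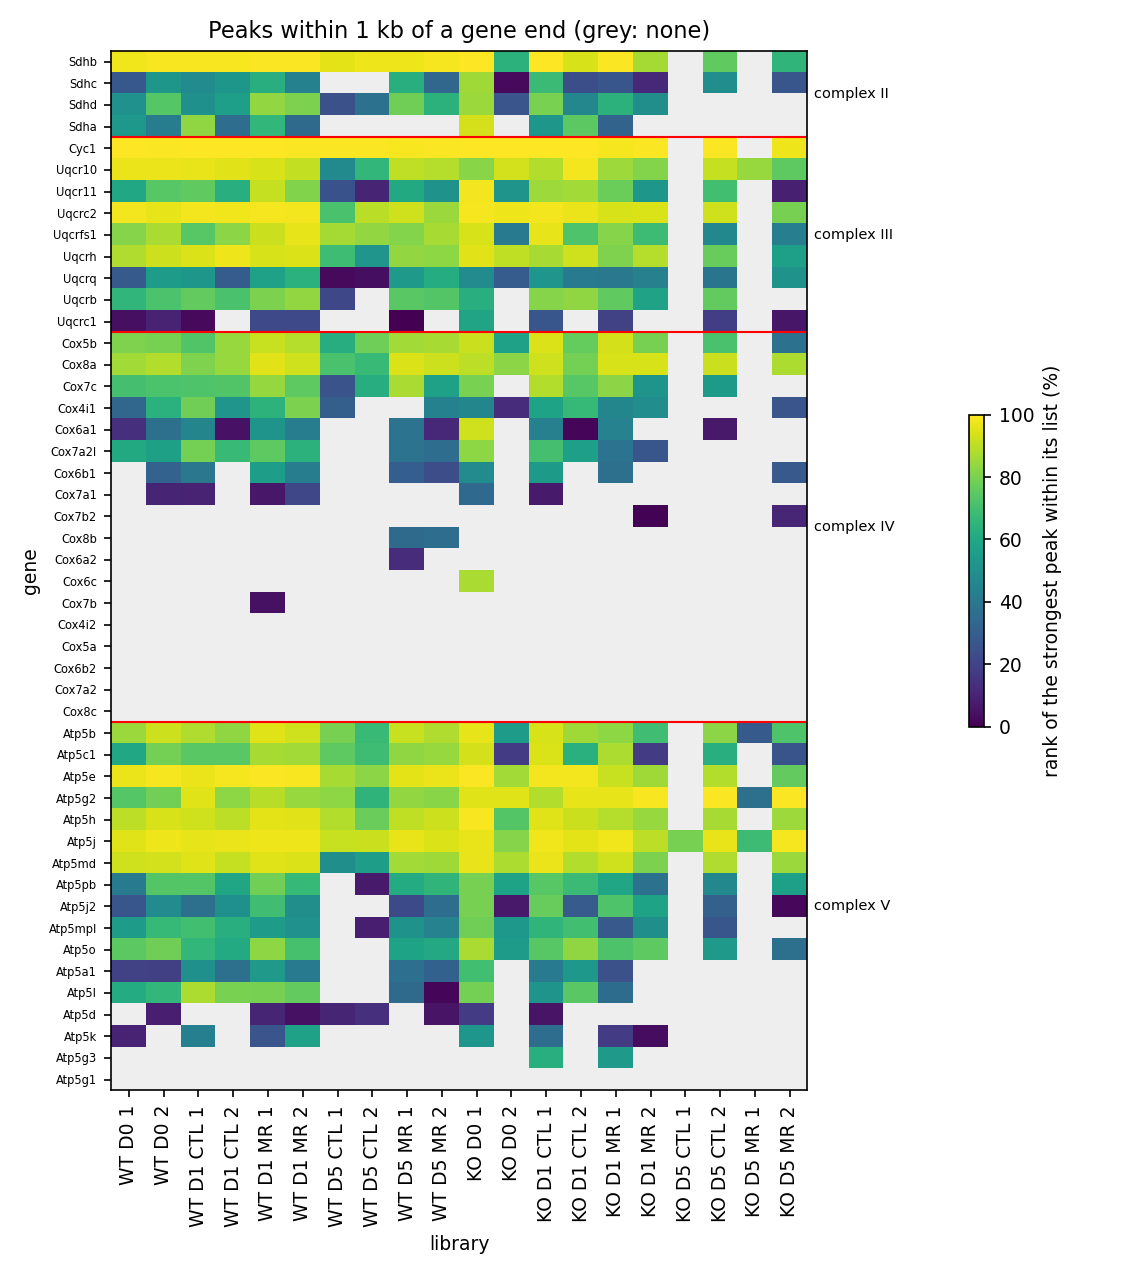
Rows are the 48 genes of complexes II to V and columns the 20 libraries. Colour gives the rank of the strongest peak within its list in percent, and grey means uncalled. Complex IV holds most grey, and the KO D5 line 1 columns are almost empty. Cox5a and Cox7a2 are grey because their gene ends lie away from the start where a peak was called.

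In complex I, Ndufv1, the NADH-binding flavoprotein, had among the strongest peaks. Strength was compared across libraries as the common-set rank, the percent rank of a gene's peak among the 5567 genes called in all 18 libraries. The Ndufv1 common-set rank was 88.6 to 98.8 (median 96.4). At the low end stood the accessory subunits Ndufb10 (0.862 to 92.0, median 8.73) and Ndufa3 (2.30 to 64.5, median 21.9), the iron-sulphur subunit Ndufs7 (3.11 to 55.9, median 16.2) and the assembly factor Ndufaf4 (0.018 to 28.4, median 0.790). Ndufb10 shows how far 1 library can lie from the rest, since its highest rank came from KO D0 line 1 and the next was 54.8. Ndufs4, a small accessory subunit, was called in KO D0 line 1 alone, Ndufa1, Ndufa9 and Ndufaf1 in 4 libraries each, and Ndufa6, Ndufb4b and Ndufb4c in none.

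In complex II, Sdhb, the iron-sulphur subunit, was called in all 18 libraries with a median common-set rank of 94.5. Its rank was 90.1 to 96.8 in the 10 WT libraries. In KO line 1 it was 98.3 at D0, 98.4 in D1 CTL and 96.3 in D1 MR, and in KO line 2 it was 42.3, 80.4, 66.3, 44.6 and 42.0 in D0, D1 CTL, D1 MR, D5 CTL and D5 MR. Line 2 thus lay below all WT libraries and line 1 did not. The flavoprotein gene Sdha was called in 10 libraries, none of them at D5, and the membrane anchors Sdhc and Sdhd in 16 each.

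In complex III, Cyc1, which encodes cytochrome c1, had the highest median rank of all members at 98.3 (93.0 to 99.9). Uqcrc2, a core subunit, had a median of 87.6 (49.2 to 95.5), and Uqcrq, a small subunit, 3.84 (0.296 to 27.5). Uqcr11 had a median of 25.9 and reached 85.6 in KO D0 line 1, where its −log10 q was 75.0 and its list rank 98.1%. Cyc1, Uqcrc2 and Uqcrq each have an end within 1 kb of another gene's end (Sharpin, Pdzd9 and Gdf9).

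In complex V, Atp5e, the epsilon subunit of the F1 head, had a median rank of 88.1 (55.8 to 96.6). Of the 3 members that encode subunit c of the rotor, Atp5g2 was called in all 18 libraries, Atp5g3 in 2 and Atp5g1 in none, the nearest peak to Atp5g1 lying a median of 37854 bases away. Gene ends in the table are not always starts. Atp5g3 had a peak within 1 kb of its RefSeq promoter start in 14 libraries and Atp5d, the delta subunit, in 18 against 8 by gene ends. Cox5a and Cox7a2, uncalled by gene ends, each had a peak at that start in 18 of 18 libraries. By promoter starts, 60.3% to 91.0% of the 78 members with an entry were called, against 36.0% to 53.5% of all genes with one.

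The muscle isoforms of complex IV had few and weak peaks. Ends of Psmd13, Capns1 and Itgad lie within 1 kb of ends of Cox8b, Cox7a1 and Cox6a2, in that order. Cox8b (chr7) was called in both WT D5 MR libraries alone, with −log10 q of 4.80 and 4.38 and list ranks of 34.5% and 35.8%. These peaks, at chr7:140900287-140900523 and chr7:140900316-140900528, covered the RefSeq start and both CAGCTG matches printed above. Cox6a2 was called in WT D5 MR replicate 1 alone, with a −log10 q of 2.69 and a list rank of 12.8%. Cox7a1 was called in 6 libraries, none at D5, namely WT D0 replicate 2, WT D1 CTL replicate 1, both WT D1 MR libraries, KO D0 line 1 and KO D1 CTL line 1. Its −log10 q was 2.64, 2.67, 1.998, 3.78, 5.63 and 2.09 in that order. The KO D0 line 1 peak, the strongest within 1 kb there, lay apart, with its midpoint at −782 bases from the start. A weaker peak in that library covered an end of the gene. None of the 3 muscle isoforms had a peak in an MR or D5 library of a KO line. With 20000 peaks a list, none of the 3 was called anywhere.

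The widespread counterparts differed from them and from each other. Cox8a was called in all 18 libraries with −log10 q of 7.48 to 49.9, its common-set rank lying between 37.2 and 83.4. Cox6a1 was called in 13 libraries with −log10 q of 1.41 to 8.23 in 12 of them and 45.6 in KO D0 line 1. Among other tissue-restricted isoforms, Cox4i2, Cox6b2 and Cox8c were called nowhere, Cox7b2 only in KO D1 MR and KO D5 MR of line 2 (−log10 q 1.22 and 1.72), and Ndufa4l2 in 11 libraries. Of their common partners, Cox4i1 was called in 15 libraries, Cox6b1 in 10, Cox7b in 1 and Ndufa4 in 17. Cox6c was called in KO D0 line 1 alone, with a list rank of 87.2%.

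**Figure D3:**
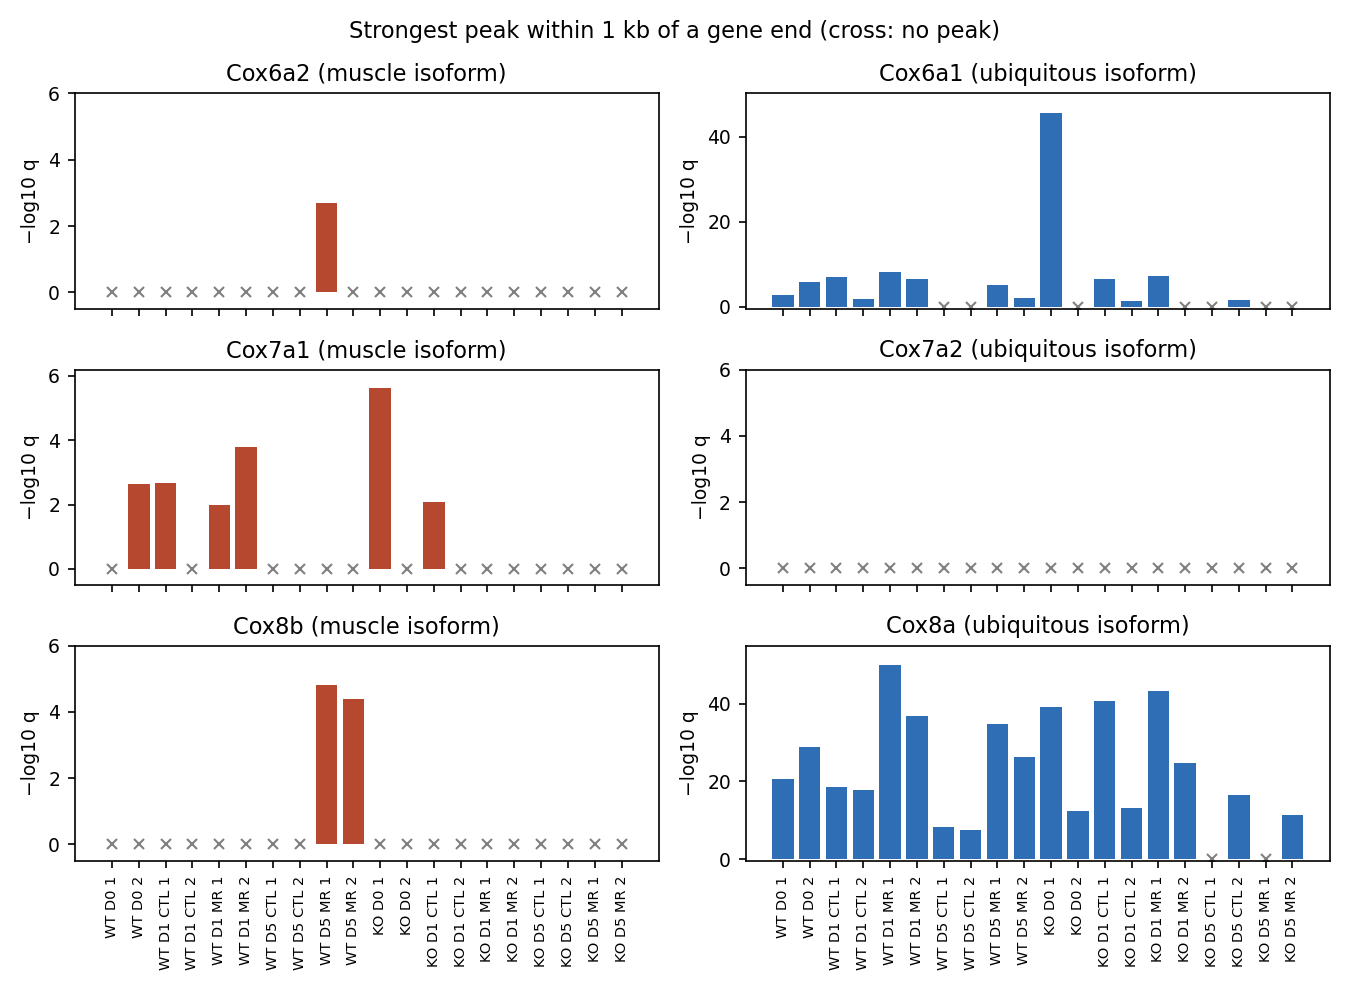
Bars give the −log10 q of the strongest gene-end peak (1 kb) in each library for the 3 muscle isoforms (left) and their widespread counterparts (right), and crosses mark libraries with no such peak. Vertical scales differ between panels. Cox8b and Cox6a2 appear only in WT D5 MR, Cox7a1 only at D0 and D1, and Cox7a2 is empty because its gene ends lie away from the start where its peak was called.

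Knockout and wild type were compared within the 5 conditions by an exact stratified permutation test (two-sided, 1944 arrangements, Benjamini-Hochberg over all genes tested). Of the 40 members called in all 18 libraries, 7 changed in common-set rank (17.5%), 4 higher and 3 lower in KO. This stood beside 772 of 5567 genes (13.9%, 389 higher and 383 lower). The median difference over the 40 members was −0.56 percentage points and over all genes 0.44, so the members did not move one way. The test treats the libraries of a condition as exchangeable although the 2 KO lines recur in all of them. With a replicate block, which ties each line to the WT replicate of its number, 0 of 40 members and 0 of 5567 genes passed, and the adjusted p of the 7 was 0.109 to 0.176 (exact permutation, 256 arrangements). That pairing rests on the number alone, leaves out replicate 1 of WT D5, and still moves labels separately in each condition. It therefore does not deal with the recurrence of the lines. With 256 arrangements in place of 1944, 0 passing does not show that no gene differed. By gene-end calls 0 of the 7 members whose calls allowed the test passed (0 at an unadjusted p of 0.05), beside 52 of 1631 genes (3.19%).

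The 4 genes with higher rank in KO were Atp5g2, Ndufb5, Ndufa5 and Ndufaf4. The Atp5g2 rank was 34.5 to 81.2 (median 48.9) in 10 WT libraries and 49.5 to 98.9 (median 89.2) in 8 KO libraries, a stratified difference of 36.9 (adjusted p = 0.0288, exact permutation). The ranges overlapped through WT D1 CTL replicate 1 (81.2) and KO line 1 at D0 (67.5) and D1 CTL (49.5), and the 5 line 2 libraries (87.7 to 98.9) lay above all of WT. Ndufb5, an accessory subunit of the membrane arm, was at 21.7 to 71.0 (median 59.1) in WT and 65.3 to 93.1 (median 84.1) in KO, a difference of 29.9 (adjusted p = 0.0138, exact permutation). An end of Mrpl47, a mitochondrial ribosomal protein gene, lies within 1 kb of an end of Ndufb5. The same holds for Asb15 and Ndufa5, and for Ankrd12 and Ndufv2, which is described below. Atp5g2, Ndufaf4, Ndufa12 and Ndufab1 have no such neighbour. Ndufa5, an accessory subunit, was at 4.30 to 50.1 (median 25.9) in WT and 7.03 to 80.0 (median 53.2) in KO, a difference of 27.0 (adjusted p = 0.0220, exact permutation). Ndufaf4 was near the bottom in WT (0.018 to 4.62, median 0.503) and at 0.0359 to 28.4 (median 7.08) in KO, a difference of 12.2 (adjusted p = 0.0288, exact permutation).

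The 3 genes with lower rank in KO were Ndufa12, Ndufv2 and Ndufab1. Ndufa12, an accessory subunit, was at 28.5 to 49.8 (median 35.2) in WT and 11.2 to 28.5 (median 15.8) in KO, a difference of −19.1 (adjusted p = 0.0138, exact permutation), and the groups met at a single value. Ndufv2, an iron-sulphur subunit of the NADH-oxidising module, was at 40.4 to 72.7 (median 52.1) in WT and 23.7 to 50.7 (median 34.2) in KO, a difference of −19.4 (adjusted p = 0.0259, exact permutation). Ndufab1, the mitochondrial acyl carrier protein, was at 66.0 to 91.8 (median 79.8) in WT and 14.96 to 93.4 (median 48.3) in KO, a difference of −33.3 (adjusted p = 0.0403, exact permutation).

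The lines did not share all of these changes to the same degree. Averaged over its usual-depth libraries, line 1 differed from WT by 33.0 for Ndufb5, 30.9 for Ndufa5, 18.8 for Atp5g2, 13.7 for Ndufaf4, −17.1 for Ndufa12, −10.7 for Ndufv2 and −4.48 for Ndufab1. Line 2 differed by 29.3, 22.5, 44.2, 8.45, −20.8, −19.4 and −45.7 for the same genes. The Ndufab1 difference thus came mostly from line 2. Without line 1 (15 libraries), 11 of 40 members passed, beside 1407 of 5576 genes (25.2%), and 0 members and 0 genes passed without line 2, where 3 strata and 27 arrangements remained. The median difference by chromosome was between −5.73 (chromosome 10, which holds Ndufa12) and 4.23 (chromosome 15, which holds Atp5g2) for the 20 chromosomes. The part of such shifts in the 7 differences was not tested. Without the KO D0 line 1 library 10 members passed, of 1040 genes (18.7%). Ndufv2 was not among them, and Sdhb, Ndufaf2, Atp5e and Ndufb6 were. No member passed without WT replicate 1 or without WT replicate 2 (108 arrangements each), nor without the D5 libraries (216 arrangements).

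**Figure D4:**
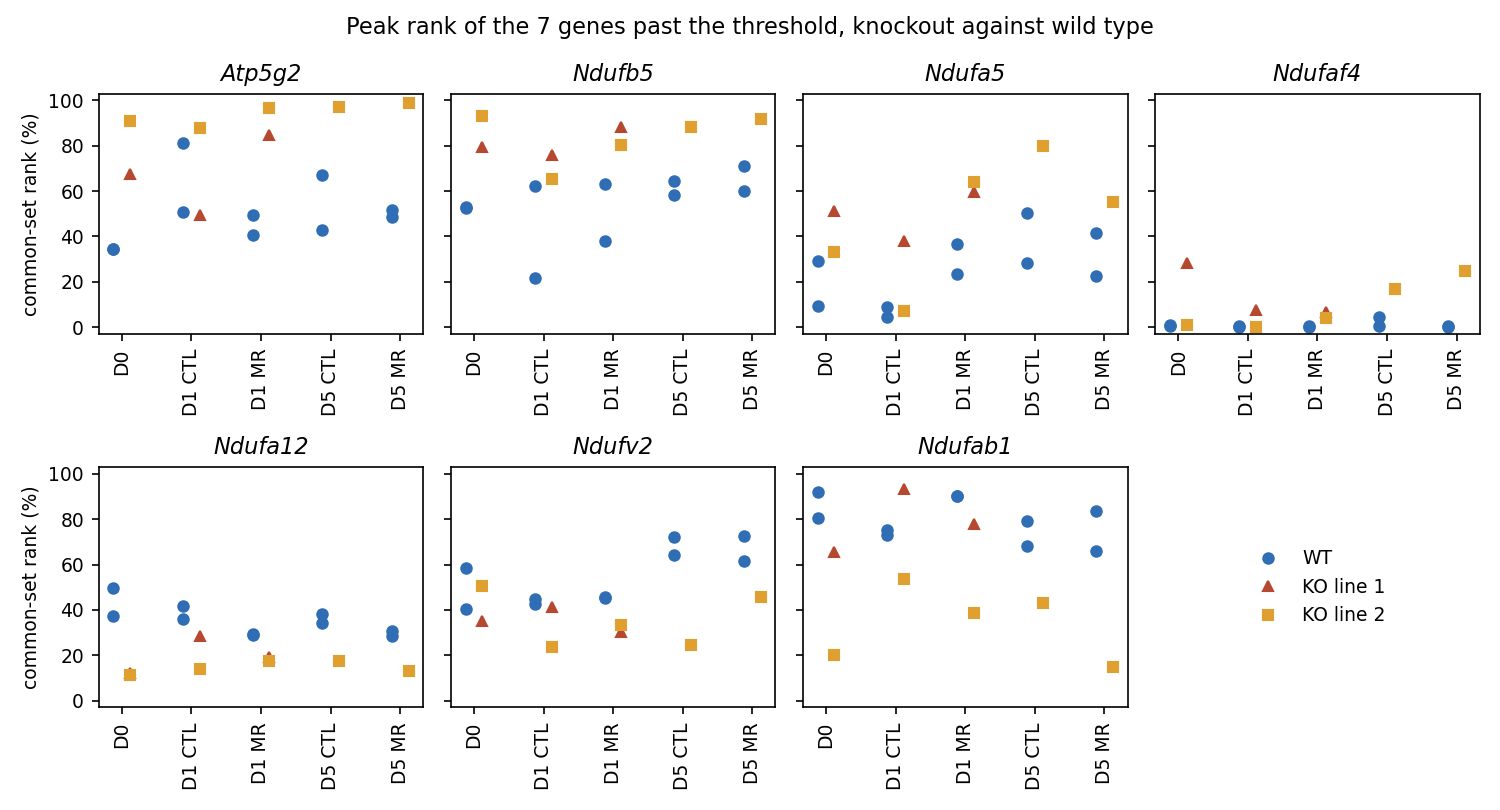
Common-set rank in percent of the 7 members past the threshold, by day and medium, with WT replicates as circles, KO line 1 as triangles and KO line 2 as squares. Line 1 has no D5 points, and the squares of Ndufab1 (14.96 to 53.7) lie below all its circles while its triangles lie between 65.6 and 93.4.

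**Figure D5:**
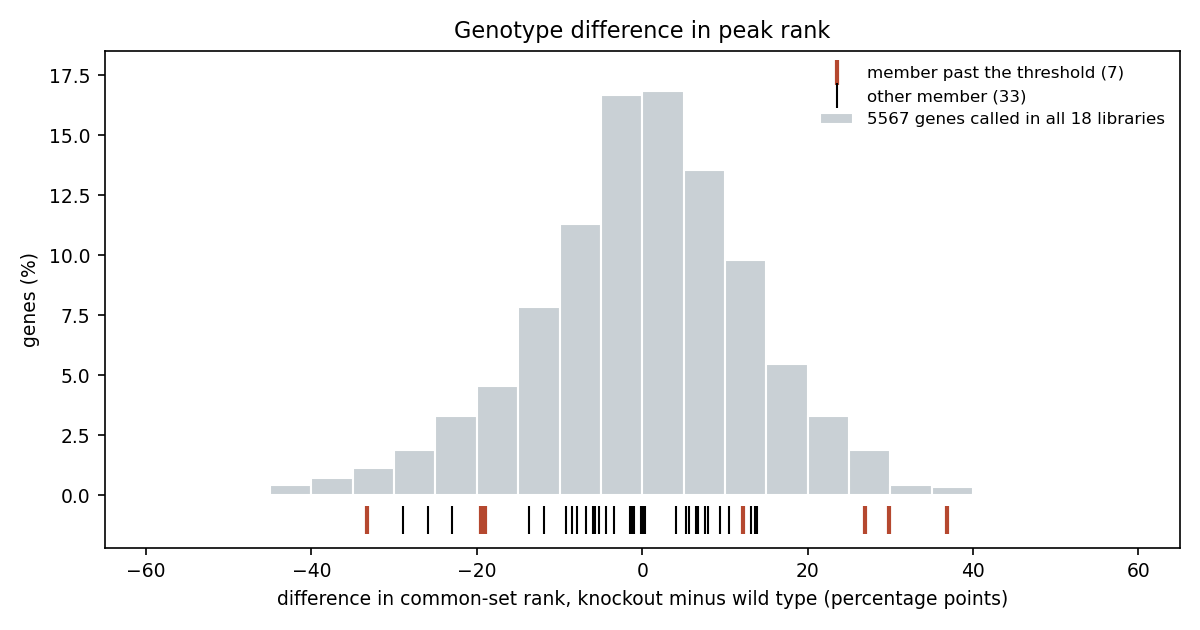
The histogram gives the percent of the 5567 genes in each 5-point bin of the knockout minus wild-type difference in common-set rank, and ticks give the 40 members. Ticks lie on both sides of 0, with the 7 members past the threshold between −33.3 and 36.9.

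Among members that did not pass, the largest differences were −28.9 for Sdhb (adjusted p = 0.0729, exact permutation) and −25.9 for Ndufaf2 (adjusted p = 0.0795, exact permutation), and in both genes line 2 lay below both WT libraries of its condition in all 5 conditions. Calls that separated both KO from both WT libraries were rare. At D0 there were 0 members in either direction (all genes 0.282% gained and 0.832% lost). At D1 in CTL, Ndufa1 was gained and Ndufc1 lost (0.953% and 1.07%), and at D1 in MR, Atp5d and Cox7a1 were lost and 0 gained (4.29% and 0.176%). The Atp5d loss is by gene ends, and a peak lay within 1 kb of its RefSeq promoter start in all 18 libraries. At D0 the KO line 1 library held the highest rank of 5 of the 40 members (12.5%), beside 11.8% of all 5567 genes.

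Related genes outside the 97 were read in the same test. Of 15 regulators of mitochondrial gene expression, 9 were called in all 18 libraries, among them Gabpa, which shares its ranks with the member Atp5j. Of these, Tfb2m, a mitochondrial transcription factor, rose in KO by 15.1 (adjusted p = 0.0288, exact permutation), while Nrf1 changed by −28.7 (adjusted p = 0.0259, exact permutation) and Tfam, which packages mitochondrial DNA, by −25.9 (adjusted p = 0.0421, exact permutation). Of 30 assembly factors, 18 were called in all 18 libraries, 3 rose (Bcs1l, Cox17 and Cox18, by 13.4, 29.4 and 25.5) and 0 fell. These counts stand beside 13.9% of all 5567 genes that passed, 389 higher and 383 lower. Cycs, the somatic cytochrome c, rose by 26.1 (adjusted p = 0.0138, exact permutation). The 3 muscle markers called in all 18 libraries were lower in KO, Des by −50.9, Chrna1 by −26.9 and Cdh15 by −30.9. Their part in the members' differences was not tested.

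MR and CTL libraries were compared inside each genotype and time point (432 arrangements). No gene passed, 0 of 5567 by rank and 0 of 218 by calls, so 0% were called in both, members included. At an unadjusted p of 0.05 there were 1115 genes and 10 members by rank, and 16 genes and 0 members by calls. The lowest p among members was that of Ndufb10, at 0.862 to 9.92 (median 2.48) in 7 MR libraries and 8.44 to 54.8 (median 11.9) in 7 CTL libraries (difference −19.5, adjusted p = 0.105, exact permutation). The largest differences upward were 24.0 for Ndufa2, 22.1 for Ndufs7 and 20.6 for Ndufaf8, and the next was 19.9 for Cox8a, at 68.3 to 83.4 in MR and 37.2 to 76.7 in CTL (adjusted p = 0.132, exact permutation). Downward, Ndufaf2 and Uqcrc2 followed with −8.80 and −7.17.

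In WT cells at D5, 11 members were called in both MR and neither CTL library, and 0 the other way, beside 5.91% and 0.153% of all genes. They were Ndufb3, Ndufs1, Sdhc, Atp5o, Cox7a2l, Atp5a1, Cox6a1, Atp5j2, Cox6b1, Cox8b and Atp5l. The MR lists held 39263 and 39538 peaks and the CTL lists 20847 and 22465. With 20000 peaks a list, 2 members (Uqcrq and Atp5o) were gained and 1 (Ndufb10) lost, beside 1.27% and 2.78% of all genes. At D1, Atp5d and Ndufaf1 were gained with MR in WT and 0 lost (1.84% and 0.208%), and in KO 0 were gained and Ndufa1 lost (0.0416% and 1.46%). The Atp5d gain is again by gene ends, with a peak at its promoter start in all 18 libraries.

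Day 5 was compared with day 1 within genotype and medium (324 arrangements). No gene passed by rank (0 of 5567, or 0%) or by calls (0 of 1297, or 0%). By rank, 1492 genes and 14 members had an unadjusted p of 0.05 or lower. The lowest were Sdhb, Uqcrc2 and Atp5e, each with an adjusted p of 0.0532 (exact permutation) and lower at D5. Uqcrc2 was at 49.2 to 79.5 (median 68.0) in 6 D5 libraries and 76.2 to 92.8 (median 90.8) in 8 D1 libraries, a difference of −21.3. Atp5e was at 55.8 to 88.2 against 64.4 to 96.6 (difference −15.8) and Sdhb at 42.0 to 94.6 against 66.3 to 98.4 (difference −22.9). The largest differences downward were −26.9 for Uqcrh, a complex III hinge subunit, that of Sdhb, and −22.5 for Ndufab1. Upward they were 25.0 for Ndufb11, 21.4 for Ndufa5 and 14.8 for Ndufb5. With ranks by fold enrichment in place of −log10 q, 4 members passed and all were lower at D5, Atp5e, Sdhb, Ndufb2 and Uqcrc2 (adjusted p = 0.048, exact permutation, 6.43% of 5567 genes).

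By calls, 709 genes had an unadjusted p of 0.05 or lower. Sdha, Cox7a2l, Atp5k and Ndufa4l2 were among them, each called less often at D5 (adjusted p from 0.0668 to 0.0711, exact permutation). A replicate block, chosen after seeing the data, permuted KO libraries only within their own line. Line 1 has no D5 library of usual depth, so here the block is the same test as leaving line 1 out (144 arrangements). With this block, 290 of the 329 genes whose calls allowed the test passed, Sdha among them (adjusted p = 0.0423, exact permutation). With 20000 peaks a list and no such block, 0 of 1069 genes passed, and 0 of the 6 members whose calls allowed the test. In WT CTL, 14 members were called in both D1 and neither D5 library and 1 (Atp5d, which had a peak at its promoter start in all 18 libraries) the other way, beside 8.92% and 0.0971% of all genes. With 20000 peaks a list these numbers were 3 (Ndufb3, Cox7a2l and Atp5l) and 3 (Ndufs7, Ndufa5 and Ndufa3), beside 1.62% and 4.21%. In WT MR, 4 members were lost (Sdha, Ndufaf1, Atp5k and Cox7a1) and Cox8b was gained, beside 4.98% and 0.208%. The D5 lists held 20847 to 39538 peaks and the D1 lists 35201 to 69881, and the part of list size in these calls was not tested.

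Day 1 in control medium was set beside day 0 without a test, since 2 libraries against 2 in each genotype allow too few arrangements. In WT, 5 of 40 members ranked higher at D1 in both libraries without overlap and 8 lower, beside 21.1% and 22.2% of 5567 genes. The largest were Atp5g2, from a mean of 34.6 at D0 to 66.0 at D1, and Ndufaf8, from 77.7 to 56.9. In KO, 4 ranked higher and 2 lower, beside 12.4% and 14% of genes, the largest being Ndufb11, from 10.0 to 42.4, and Ndufb5, from 86.4 to 70.6.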

How the data were processed

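The 20 libraries each had 1 broadPeak list on GRCm38, per the submitters' processing notes, and the aligner and peak caller are not given in the sources used here. Each list gives, as the authors' deposited values per peak, a score, a fold enrichment (a ratio), a −log10 p-value and a −log10 q-value. The −log10 q-value and, in 1 alternative, the deposited fold were used only to rank or filter peaks within a list. Read depth is unknown from these lists, so the number of peaks is given in its place.

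Genes and promoter windows came from RefSeq GRCm38.p6 tables. The strongest peak within 1 kb of either gene end was taken. The common-set rank is the percent rank among the 5567 genes called in all 18 libraries of at least 5000 peaks. A gene that lacks a peak in 1 library has no such rank and no rank test. Groups came from the library titles.

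Contrasts used an exact stratified permutation test of the mean difference over strata, two-sided, with Benjamini-Hochberg adjustment over all genes that could reach p = 0.05, at an adjusted threshold of 0.05 (Python 3.11.15, numpy 2.4.6, pandas 2.3.3). The test was tried on simulated data with independent noise in each library. Those data held no correlation between libraries of the same KO line, so they do not check the test for that case. The alternatives were 2 kb or 500 bp, peaks with −log10 q of at least 2, the 20000 strongest peaks, all 20 libraries, rank by fold, a replicate block, leaving out replicates, lines or D5, and, chosen after seeing the data, promoter starts, leaving out KO D0 line 1 and a block for the KO lines alone. Named genes are the muscle and other restricted isoforms with their partners, the Sdh genes and Cyc1, members called in some libraries, members past the threshold or with the lowest p, the 5 highest and 5 lowest by median rank and the 3 largest differences each way per contrast, and others were chosen after their values were seen. The members and lists were chosen with earlier results of these data known. Same-numbered libraries were compared by the correlation of their deviations from group means. It was 0.466 for KO MR and CTL at D1 and 0.352 for KO D1 CTL and D0, where the number is the cell line, and between −0.0187 and 0.0800 for WT, where the labels give only a number. Between KO line and WT replicate of the same number it was −0.153 at D0, −0.133 in D1 CTL and 0.0732 in D1 MR. Results on 1 member are not reported here by name.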

Additional observations from a re-analysis of the deposited data

Results flagged for a closer look

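With methionine restriction at D1, the share of members called went up in WT, where both MR libraries lay above both CTL libraries (by 6.19 percentage points in the mean), and down in each KO line (by 3.09 in the mean), a gap of 9.28 points. The share of all genes called moved the same way, from a mean of 48.4% to 51.9% in WT and from 48.7% to 43.7% in KO. The difference was not tested, and the number of peaks moved the same way, from 45545 and 60173 to 57676 and 69881 in WT and from 61045 and 46664 to 48460 and 35201 in KO line 1 and line 2.

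Several common-set ranks also moved in opposite directions in WT, without overlap, and in both KO lines, and none of these differences was tested. For MR minus CTL at D1 this held for 7 of 40 members, beside 10.1% of 5567 genes. The WT change minus the KO change was 45.8 points for Uqcr11, 40.7 for Atp5b, 22.2 for Atp5h, 29.7 for Atp5c1, 31.1 for Ndufab1 and 30.5 for Ndufaf3, and −43.3 for Atp5g2. For D1 CTL minus D0 it held for 6 of 40 members, beside 8.64% of genes, with −20.4 for Uqcr10, −23.3 for Ndufaf8, 41.9 for Atp5g2, 38.6 for Ndufv3, 32.7 for Uqcrh and −42.7 for Ndufab1. Both sets use the same D1 CTL libraries, which enter with opposite sign.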

How the results depend on the processing

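By common-set rank, 7 members differed between genotypes. This number was 0 with a replicate block that pairs KO line and WT replicate by number, 0 without D5, and 0 to 11 when a replicate or line was left out, where fewer arrangements remained (0 without WT replicate 1, WT replicate 2 or KO line 2, and 11 without KO line 1). It was 6 or 7 with the other distances, with −log10 q of at least 2, with fold ranks and at promoter starts, and no named difference changed sign. The 7 at 2 kb were not all the same genes. Ndufv2 did not pass there (adjusted p = 0.0746, exact permutation). Cox4i2, uncalled at 1 kb, did, with a difference of −39.5 (adjusted p = 0.0140, exact permutation). Genes differing by calls went from 52 to between 0 and 61, with 0 members in each.

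For D5 against D1, 0 members by calls became 8 of 14 with all 20 libraries (beside 63.7% of 1786 genes). The added libraries are the nearly empty D5 lists of KO line 1 (644 and 1881 peaks), both on the D5 side. This setting therefore cannot tell a change at D5 from list size. The number was 2 with the block for KO lines, which here is the same test as leaving out KO line 1. It was 0 without WT replicate 1 or without WT replicate 2. By rank, 0 became 4 with fold ranks. The cause was not tested. MR without D5, and D5 against D1 without KO line 2, could not reach the threshold (smallest p 0.0556).

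The mean percent of members called moved by more than the replicate SD (for KO D5 CTL, 1 library, beyond its exact binomial interval) as follows. With 20000 peaks, WT D0 and WT D1 MR had 53.1 and 53.6, the other WT groups (D1 CTL, D5 CTL and D5 MR) 52.1 each, and the KO values were 53.1 in KO D1 CTL, 51.0 in KO D1 MR and 52.6 in KO D5 CTL. At promoter starts the percent was taken over the 78 members with an entry, not over all 97. It was then 82.1, 82.7, 89.1, 61.5 and 79.5 in WT D0, D1 CTL, D1 MR, D5 CTL and D5 MR. At 2 kb it was 85.6 in WT D1 MR, 59.3 in WT D5 CTL and 78.4 in WT D5 MR, at 500 bp 52.1 in WT D5 CTL and 71.1 in WT D5 MR, and with −log10 q of at least 2 it was 72.2 in WT D5 MR. Read depth is unknown, and an uncalled gene was not detectable in that list.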
